A study of Brassica napus with 6 samples.

Results

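miR169 is a plant microRNA family that acts on mRNAs of NF-YA transcription factors in Arabidopsis, and it was followed here in young siliques, the seed pods, of rapeseed (Brassica napus). Its members were all known miRNAs with the family number miR169, which gave 5 of the 69 known miRNAs (ath-miR169a-5p, ath-miR169b-5p, ath-miR169d, bna-miR169m and gma-miR169e). To these were added the degradome entries with a miR169 name, 3 of 95 entries of known miRNAs in the line with long siliques (LS) and 14 of 382 in the line with short siliques (SS). The series set out to find miRNAs with a part in the early growth of the silique. Small RNA was sequenced in 2 libraries per line and the degradome, which records the 5′ ends of cut mRNAs, in 1 library for each line. Both lines were field-grown backcross progeny of the cross 8008 × 4942, per the labels, and tissue was collected between 0 and 7 days after pollination, from about 12 plants at each stage. The labels give no genotype beyond silique length, and plants and stages are pooled within a library. Small RNA counts hold no marker genes, so the tissue label was not checked.

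NF-YA proteins are the DNA-binding subunits of the NF-Y complex, which recognises the CCAAT box of promoters. In Arabidopsis, miR169 pairs with a site in NF-YA mRNAs and directs their cutting, and the family is known for its responses to drought and to nitrogen supply. The prefix of each name gives the species of the listed miRNA to which the rapeseed reads were assigned (ath for Arabidopsis, bna for rapeseed, gma for soybean). Members of the family differ by few bases, and reads shared between near-identical members cannot be resolved from the counts.

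The miRNA sequences that carry the degradome result are those of bna-miR169n and bna-miR169b, printed 5′ to 3′ in the DNA letters of the deposited tables with the seed, bases 2 to 8, in capitals.
bna-miR169n: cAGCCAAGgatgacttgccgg
bna-miR169b: cAGCCAAGgatgacttgccga
Both have 21 bases and the same seed, and they differ by 1 substitution, G21A, counted from the 5′ end of bna-miR169n. These names do not occur among the counted miRNAs, and the count tables carry no sequences, so the counted members and the degradome names were not joined. A shared letter, as in bna-miR169b and ath-miR169b-5p, was not taken to mean the same sequence.

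The sites listed for bna-miR169n in the SS degradome show what the targets share, and are given 5′ to 3′ with the bases opposite the seed in capitals.
BnaA03g04040D: ctggcaaatcattCTTGGCTt
BnaA03g35980D: caggcaaatcattCTTGGCTc
BnaA05g19990D: ctggcaactcattCTTGGCTt
BnaA06g01280D: ctgggaagtcatcCTTGGCTa
BnaC03g41820D: ctggcaaatcattCTTGGCTc
BnaC05g31370D: ctggcaactcattCTTGGCTt
BnaC06g06950D: ctgggaagtcatcCTTGGCTa
The 7 targets carried 5 distinct sites, and 16 of the 21 positions were identical in all of them, the whole stretch opposite the seed included. The gene table used here held none of the 7 identifiers, so it was not checked whether these targets encode NF-YA proteins.

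Library totals given by the authors were between 6046506 reads, in SS library 1, and 6739286 reads, in LS library 2. Known miRNAs made up 4.82% of the total in both LS libraries, but 6.51% (library 1) and 6.50% (library 2) in SS. The LS libraries agreed within sampling noise (chi-square 0.921 per miRNA over 54 miRNAs, p = 0.639), so they were counted as 1 sample and LS levels are given with a 95% Poisson interval. The SS libraries differed by more (1.61 per miRNA over 55 miRNAs), so SS levels are given as mean ± SD. Levels are reads per 1000000 of the library total (RPM). Nothing in the labels ties a library to its own plants, so p-values describe variation among these libraries, which may be technical.

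miR169 was a rare family in both lines. Its 5 members together had 63 and 71 reads in LS and 86 and 79 in SS, which placed miR169 at rank 25 of 39 families by mean RPM. As a part of all known miRNA reads it made up 0.0204% and 0.0219% in LS and 0.0219% and 0.0190% in SS. The lines overlapped on this scale. On the scale of the library total, the summed level was 10.2 RPM in LS (interval 8.54 to 12.1) and 13.3 ± 1.33 RPM in SS (SD, n = 2), and the lines did not overlap. The ratio of SS to LS was 1.30 with an exact counting interval of 1.03 to 1.65. This was the typical family on that scale. The log2 fold change was 0.38 for the miR169 sum and also 0.38 for the median of the 32 tested families. Of the 69 known miRNAs taken singly, 69.6% were higher in SS without overlap. In pooled tissue of this kind, fewer cells that make a miRNA and less of it per cell cannot be told apart.

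ath-miR169b-5p had the highest mean level of the members over all 4 libraries, though in LS alone it had 52 reads against 55 of bna-miR169m. It had 23 and 29 reads in LS and 44 and 39 in SS, that is 3.59 and 4.30 RPM against 7.28 and 6.09 RPM. Both SS libraries were above both LS libraries, as for 69.6% of all 69 known miRNAs on this scale. Its level was 3.95 RPM in LS (interval 2.95 to 5.19) and 6.68 ± 0.839 RPM in SS (SD, n = 2). The ratio was 1.69 (exact counting interval 1.18 to 2.43), and this interval covers counting error only.

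bna-miR169m, the member that carries the rapeseed prefix, did not differ between the lines beyond counting error on the scale of the library total. Its 28 and 27 reads in LS and 28 and 24 in SS amounted to 4.37 and 4.01 RPM against 4.63 and 3.75 RPM. The SS values lay on either side of the LS values. The ratio of SS to LS was 0.999, with an interval from 0.670 to 1.49. Scaled to known miRNA reads instead, its log2 fold change was -0.43 ± 0.31 (SE, no factor, edgeR adjusted p = 0.225).

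ath-miR169a-5p was several times rarer than ath-miR169b-5p in every library. It had 5 and 9 reads in LS and 10 and 11 in SS, or 0.780 and 1.34 RPM against 1.65 and 1.72 RPM. The SS libraries were above the LS libraries without overlap, but the ratio of 1.58 had an interval of 0.768 to 3.37, so a difference was not detectable at this depth.

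The remaining members were near the limit of detection. ath-miR169d had 5 reads in each LS library and 2 and 4 in SS, and the interval of its SS to LS ratio ran from 0.189 to 1.92. It was lower in both SS libraries than in either LS library, the opposite order to ath-miR169a-5p and ath-miR169b-5p. gma-miR169e had 2 and 1 reads in LS and 2 and 1 in SS, too few for a ratio.

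A separation of the lines in RPM was common. Of all 69 known miRNAs, 69.6% were higher in both SS libraries than in both LS libraries, and 11.6% were lower in both. The 2 members that were higher and the 1 that was lower are read against these shares.

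**Figure D1:**
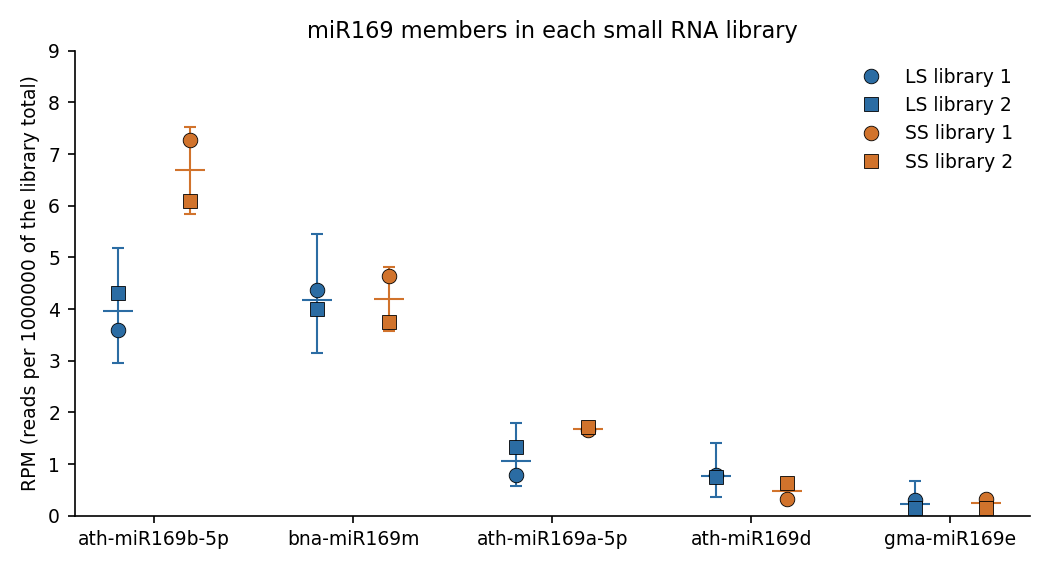
Level of each miR169 member in reads per 1000000 of the library total (RPM, vertical axis), with 1 point per library and, as bars, the LS level over both libraries with its 95% Poisson interval and the SS mean ± SD. ath-miR169b-5p lies at 3.59 and 4.30 RPM in LS and at 7.28 and 6.09 RPM in SS, while bna-miR169m lies between 3.75 and 4.63 RPM in all 4 libraries.

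By level, ath-miR169b-5p stood at rank 39 of the 69 known miRNAs, next to bna-miR169m at rank 40. The others stood at ranks 51 (ath-miR169a-5p), 58 (ath-miR169d) and 65 (gma-miR169e). Over all 4 libraries the interval of ath-miR169b-5p (4.42 to 6.24 RPM) overlapped that of bna-miR169m (3.43 to 5.05 RPM), so their order is not resolved. The interval of ath-miR169a-5p (0.952 to 1.90 RPM) lay below both and overlapped that of ath-miR169d (0.357 to 1.02 RPM). Just above ath-miR169b-5p came bna-miR161 at 5.49 RPM, and just below bna-miR169m came ath-miR399b at 3.41 RPM, and both intervals overlapped those of their neighbours.

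The lines were compared with edgeR (quasi-likelihood test, TMM scaling), fitted on the 52 known miRNAs that reached 10 counts in at least 2 libraries. Of the 5 members, 3 passed this filter, and ath-miR169a-5p passed it through its SS libraries alone. None of the 3 passed the test, whereas 51.9% of the 52 tested miRNAs did, 34.6% higher and 17.3% lower in SS. The log2 fold change of SS over LS was 0.46 ± 0.28 for ath-miR169b-5p (SE, edgeR adjusted p = 0.184) and 0.36 ± 0.50 for ath-miR169a-5p (edgeR adjusted p = 0.614). It was -0.30 ± 0.31 for bna-miR169m (edgeR adjusted p = 0.477). A call also depends on read number. With 80227 to 124764 reads per library, smo-miR156c passed at a log2 fold change of 0.35 (edgeR adjusted p = 1.48e-81). At the few reads of the members, a missed threshold does not show an unchanged level.

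The call for ath-miR169b-5p depended on the scale. With the authors' library totals in place of TMM, its log2 fold change was 0.75 ± 0.28 and passed the test (edgeR adjusted p = 0.0131). On this scale 69.2% of the 52 tested miRNAs passed, 63.5% as higher and 5.77% as lower in SS. The median log2 fold change over the 52 was 0.41, against 0.12 with TMM. The share of known miRNA reads moved with this shift, from 4.82% in LS to about 6.50% in SS, and its part in the result was not tested. Counting LS as 1 sample on this scale left the log2 fold change at 0.75 with a larger SE of 0.41 and ended the call (edgeR adjusted p = 0.106), while 63.5% of the tested miRNAs still passed. ath-miR169a-5p and bna-miR169m did not pass with the library totals, at 0.65 ± 0.50 (edgeR adjusted p = 0.24) and -0.0021 ± 0.31 (edgeR adjusted p = 0.995).

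Measured from the median of the tested miRNAs, which by construction cancels most of a change of scale, the log2 fold change with TMM was 0.34 for ath-miR169b-5p, 0.25 for ath-miR169a-5p and -0.41 for bna-miR169m. For ath-miR169a-5p this distance from the median was -0.091 without LS library 1 and 0.75 without LS library 2.

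Summed over its members, miR169 had a log2 fold change of 0.0065 ± 0.15 with TMM (SE, edgeR adjusted p = 0.996), a value below 0 with RLE factors (-0.0024) and with no factor (-0.052). Of the 32 families tested, 56.2% passed. With the library totals the sum was at 0.38 ± 0.14 and passed (edgeR adjusted p = 0.0402), when 75% of the families did so and the median family was at 0.38. This call also ended when LS was counted as 1 sample (0.38 ± 0.22, SE, edgeR adjusted p = 0.116), where 68.8% of the families passed.

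**Figure D2:**
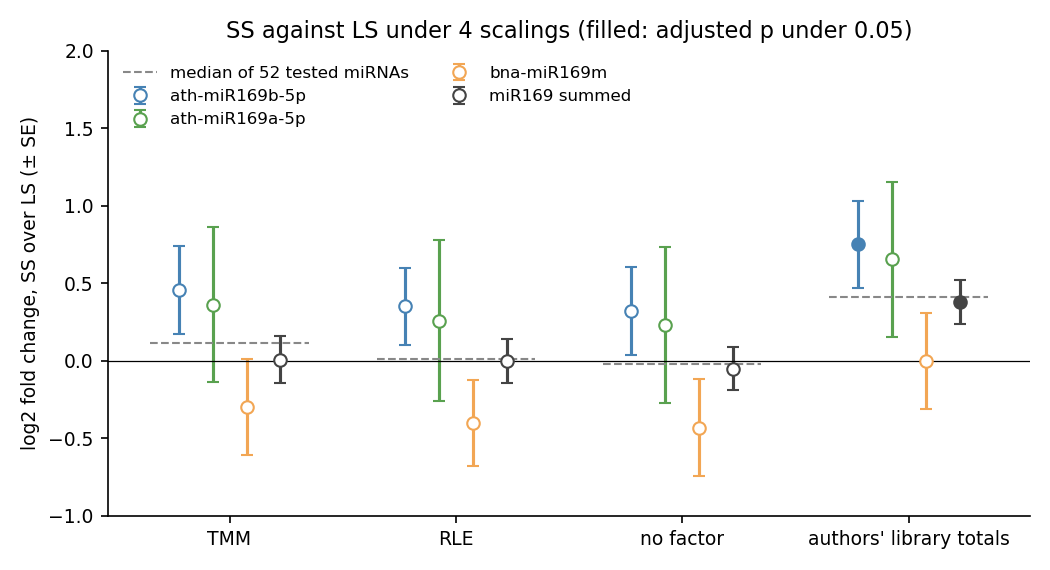
Log2 fold change of SS over LS with its SE (vertical axis) for the 3 tested members and for the miR169 sum under 4 scalings, filled where the edgeR adjusted p was under 0.05, with the median of the 52 tested miRNAs as a dashed line. ath-miR169b-5p and the sum are filled with the authors' library totals, where the median is at 0.41, and under no other scaling shown.

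In the authors' deposited table for the pair numbered 1, ath-miR169b-5p had a log2 fold change of 1.02 with p = 0.00505 and was marked as changed. In the authors' deposited table for the pair numbered 2 it had 0.50 with p = 0.156 and no mark. No other member was marked in either of the authors' deposited tables. Each of these tables marked 20.3% of its 69 miRNAs, and each p compares 1 library with 1 library.

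Whether ath-miR169a-5p and ath-miR169b-5p shifted against each other was asked within libraries, where no scaling enters. ath-miR169b-5p held 82.1% and 76.3% of the reads of the 2 members in LS, and 81.5% and 78.0% in SS. The exact binomial 95% intervals of these shares all overlapped, the narrowest being 68.6% to 90.7% in SS library 1. The SS values lay between the LS values. The mean share was 0.51 percentage points higher in SS (exact two-sided permutation test over libraries, p = 1, where the smallest p that 2 against 2 libraries allow is 0.333), and the odds ratio of SS over LS was 1.06 with a counting interval of 0.457 to 2.42.

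Against the whole family the share of ath-miR169b-5p was 36.5% and 40.8% in LS and 51.2% and 49.4% in SS, without overlap. The exact two-sided permutation p was 0.333, the smallest possible, and the odds ratio was 1.59 (0.980 to 2.60). Set against bna-miR169m alone, a comparison chosen after the values were seen, ath-miR169b-5p held 45.1% and 51.8% of their summed reads in LS and 61.1% and 61.9% in SS. The odds ratio was 1.68, and its counting interval of 0.978 to 2.91 included 1.

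**Figure D3:**
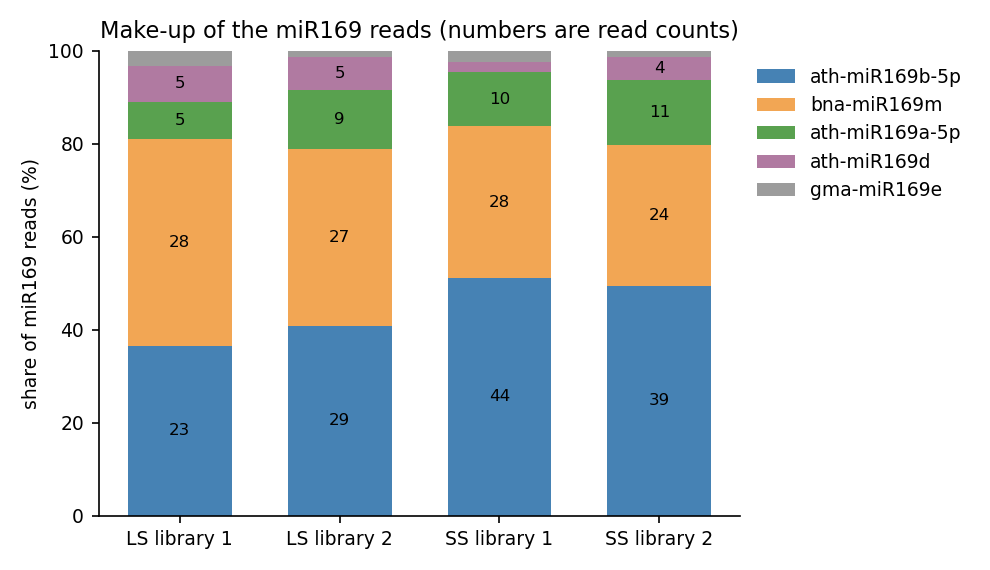
Share of each member among the miR169 reads of a library (vertical axis, percent), with the read counts written in the larger segments. ath-miR169b-5p takes 36.5% and 40.8% in LS and 51.2% and 49.4% in SS, and ath-miR169a-5p between 7.94% and 13.9%.

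The miRNAs most like each member across the 4 libraries were sought among the tested ones by the distance between profiles of log2(RPM + 0.5), each centred on its mean. Nearest to ath-miR169b-5p were smo-miR156c, bra-miR9553-5p and bna-miR167d, at distances of 0.24, 0.25 and 0.25. Nearest to ath-miR169a-5p were ath-miR399b (0.16), ath-miR393b-3p (0.27) and ath-miR169b-5p (0.34). Nearest to bna-miR169m were aly-miR160b-3p (0.073), nta-miR168a (0.19) and mtr-miR171b (0.26). The first-listed profile differed between the tested members, though ath-miR169b-5p was among the 3 nearest to ath-miR169a-5p. Of the untested members, ath-miR169d was nearest to bra-miR2111b-3p (0.41) and gma-miR169e to bna-miR169m (0.16). The added 0.5 flattens a profile as low as that of gma-miR169e, at 0.148 to 0.331 RPM, which brings it near any flat profile. Counting error of the few reads of the members does not enter the distances, so their order is not resolved. With 4 libraries, of which the LS libraries count as 1 sample, these distances are a description.

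miR169 belongs to the families that act on transcription factors, of which 12 of 16 listed were counted. Families were matched by number, so both arms of a family can enter, such as ath-miR160a-5p and aly-miR160b-3p. Which arm acts on these mRNAs was not checked. Of the 26 tested miRNAs of these families, 11 passed as higher and 5 as lower in SS with TMM, beside 34.6% and 17.3% of all tested miRNAs. With the library totals 17 were higher and 2 lower, beside 63.5% and 5.77% of all tested. Their median log2 fold change was 0.13 with TMM, beside 0.12 over all 52 tested miRNAs, of which these 26 are a part. The largest rise was that of ptc-miR156k, of the family that acts on SPL genes, with 27 and 32 reads in LS and 120 in each SS library (log2 fold change 1.80 ± 0.20, SE, edgeR adjusted p = 7.23e-14). The largest fall was that of ath-miR160a-5p, whose family cuts mRNAs of auxin response factors, from 81 and 86 reads in LS to 17 and 11 in SS (-2.78 ± 0.27, SE, edgeR adjusted p = 7.25e-17).

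The families known for responses to nutrients and drought, among them miR169, had 9 of 10 counted, again by family number and with either arm. Of their 13 tested miRNAs, 3 were higher and 2 lower in SS with TMM, beside 34.6% and 17.3% of all tested miRNAs. With the library totals 6 were higher and 1 lower, beside 63.5% and 5.77% of all tested. The median log2 fold change of these 13 was 0.15 with TMM, beside 0.12 over all tested miRNAs, of which they are a part. bna-miR2111c, of a family induced by phosphate shortage in Arabidopsis, had the largest rise with 7 and 2 reads in LS and 12 and 16 in SS (1.40 ± 0.52, SE, edgeR adjusted p = 0.018). Its log2 fold change ranged from 0.74 without LS library 2 to 2.56 without LS library 1, and DESeq2 did not call it (DESeq2 adjusted p = 0.283), nor did the fit with the replicate number as a block (edgeR adjusted p = 0.178). The largest fall was that of bol-miR398a-5p, from 24 reads in LS to 3 in SS. The ratio of LS to SS was 7.57 (exact counting interval 2.30 to 39.3). bna-miR2111c reached the count filter through SS alone and bol-miR398a-5p through LS alone, the line in which each was high. Both are among the miRNAs called above, and both calls rest on the reads that admitted them to the test. These calls are therefore no separate support for a difference.

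The degradome was compared to see which mRNAs carried a cut assigned to miR169 in each line. In SS, bna-miR169n and bna-miR169b were each listed at the same 7 targets and at the same position in each. In LS, bna-miR169n was listed at 3 of these targets and bna-miR169b at none. The LS table used here stops inside an entry at BnaA09g07450D, with its targets in ascending order, so the 3 targets on C chromosomes lie beyond its end. With 1 library per line and no read numbers at the sites, these lists have no replicate check and were not tested. The depth of the degradome libraries is unknown.

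Up to the last LS target, the SS table held 8 miR169 entries at 4 targets, and LS held 3 entries at 3 targets. All 3 LS entries were also in SS, which is 100% of the LS entries and 37.5% of the SS entries in that range. The 8 SS entries list both names at the same position of each of the 4 targets. By target, the 3 of LS were all among the 4 of SS. For the other known miRNAs, 76 pairs of a miRNA name and a target were shared, 82.6% of the 92 in LS and 63.3% of the 120 in SS. BnaA03g04040D was listed in SS and not in LS. bna-miR169b was 1 of 3 names, with bna-miR161 and bra-miR390-5p, that were absent from LS among the 29 known names in this range of SS.

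**Figure D4:**
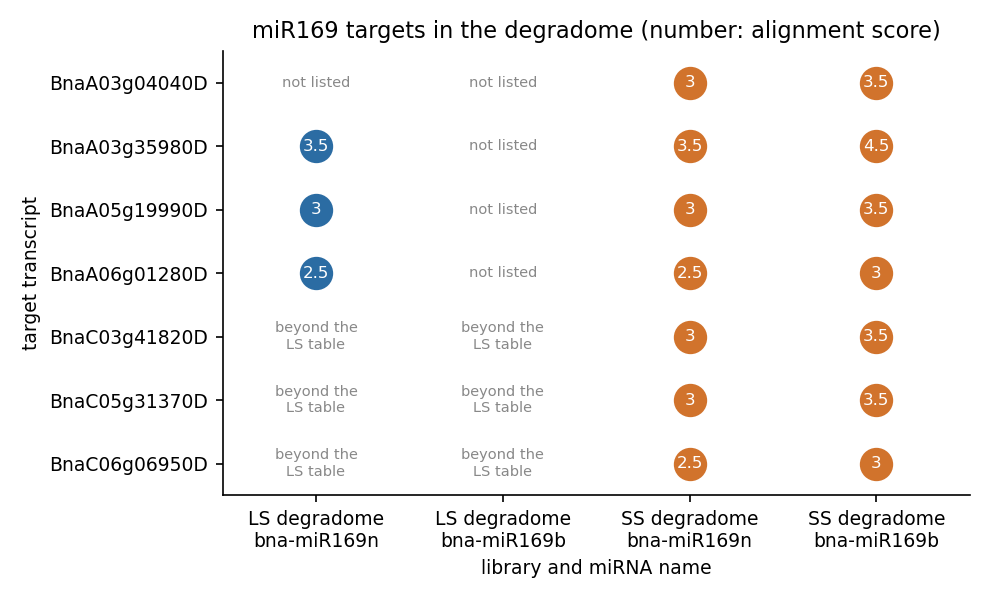
Targets of bna-miR169n and bna-miR169b (vertical axis) in each degradome library (horizontal axis), with the authors' alignment score in each circle. The SS library lists both miRNAs at all 7 targets, and the LS library lists bna-miR169n at BnaA03g35980D, BnaA05g19990D and BnaA06g01280D.

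All 3 miR169 entries of LS and all 14 of SS had category 0. The 14 SS entries stand for 7 cut positions, each listed under both names, so they are not 14 separate observations. In the usual degradome convention this is the class in which the cut site is the position with the most reads on its mRNA, but the tables do not define their categories. Category 0 held 95.7% of the entries of the other known miRNAs in LS and 68.8% in SS. miR169 was 1 of 12 among 15 families in LS, and 1 of 10 among 20 families in SS, with every entry in category 0.

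The listed targets were spread over both subgenomes, A (shared with Brassica rapa) and C (shared with Brassica oleracea), as read from the identifiers. In SS, 4 miR169 targets lay on A chromosomes and 3 on C chromosomes. For all known miRNAs in SS the numbers were 117 and 134, so 53.4% of the targets were on C. By number of targets miR169 was at rank 13 of the 20 families in SS, level with miR400. In LS it was at rank 8 of the 15, level with miR160 and miR395. The LS list ends before the C chromosomes, so the ranks cover unlike ranges.

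Between the subgenomes, sites of targets on chromosomes of the same number were identical or differed by 1 base. BnaA05g19990D and BnaC05g31370D had identical sites, listed at positions 955 and 967 of their mRNAs. BnaA06g01280D and BnaC06g06950D also had identical sites, at positions 926 and 968. BnaA03g35980D and BnaC03g41820D, at positions 914 and 967, differed by A2T, counted from the 5′ end of the site. BnaA03g04040D, at position 694, differed from BnaC03g41820D by T21C and from BnaA05g19990D by A8C. From BnaA03g35980D, on the same chromosome, it differed by T2A and T21C, so likeness did not follow chromosome number alone. No entry of any other miRNA was listed on the 7 targets in SS. The same held in LS for the targets on A chromosomes. Those on C chromosomes lie beyond the end of the LS list, so nothing is known of them there.

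All 7 bases of the seed were paired in every entry. At BnaA06g01280D and BnaC06g06950D, 18 of the 21 bases of bna-miR169n were paired, with a G:U pair at base 20 and mismatches at bases 1 and 17. These targets had the lowest score for bna-miR169n, 2.5. At the other 5 targets 17 bases were paired, with a G:U pair at base 9 and mismatches at bases 1 and 14. BnaA03g35980D also had a mismatch at base 20, where the other targets had a G:U pair, and the highest score for bna-miR169n, 3.5.

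**Figure D5:**
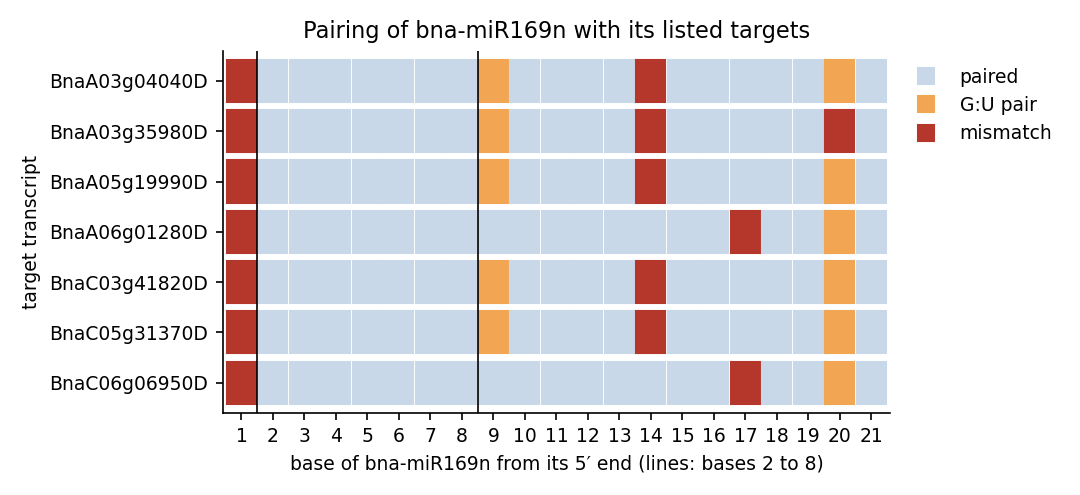
Pairing of each base of bna-miR169n (horizontal axis, counted from the 5′ end) with its 7 targets in the SS degradome, computed from the deposited alignments. Bases 2 to 8 are paired at every target, base 1 at none, and the targets on A06 and C06 differ from the others at bases 9, 14 and 17.

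The alignments of bna-miR169b scored differently from those of bna-miR169n at the same sites. Its score was higher by 0.5 at 6 targets and by 1 at BnaA03g35980D, and each of its alignments held 1 gap, at base 19 or 20, near the 3′ end at which the miRNAs differ. The authors' p-value had the opposite order at 6 of the 7 targets in SS, 0.002 for bna-miR169b and 0.006 for bna-miR169n. At BnaA03g04040D the value for bna-miR169n was listed as 0. In LS the p-value of bna-miR169n was 0.01 at all 3 targets.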

How the data were processed

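Small RNAs of 18 to 30 nt from 10 µg of total RNA were sequenced per the labels' protocols, and degradome libraries started from about 200 µg. The known miRNA tables hold whole-number read counts that were not normalized, per the file headers. The RPM values in the deposited tables were the count per 1000000 reads of the library total (276 of 276 values equal within 0.0001, with 0.01 at a count of 0). The authors' log2 fold changes are SS over LS, and the authors' p-values compare 1 library with 1 library, per the file headers. The sources used here do not give the aligner, miRNA database, degradome caller or genome build.

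Counts were tested with edgeR 4.0.16 in R 4.3.3 (quasi-likelihood, TMM factors from known miRNA reads, 10 counts in 2 libraries, Benjamini-Hochberg over all tested miRNAs or families, threshold 0.05). The SE is the log2 fold change divided by the square root of F. Both LS libraries entered the fit, so its p-values may be too small. Its code was checked on simulated counts. Alternatives were other scalings and filters, DESeq2 1.42.0 (local fit, no independent filtering), limma-voom (limma 3.58.1), the replicate number as a block, each library left out, and the LS libraries summed. Shares have exact Clopper-Pearson intervals and ratios exact conditional intervals, which cover counting error only (scipy 1.17.1). Named miRNAs were all members, their neighbours by level, their 3 nearest profiles and the largest change of each list in each direction. Members and lists were chosen with earlier results of these data known. Predicted miRNAs were not used.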

Additional observations from a re-analysis of the deposited data

How the results depend on the processing

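ath-miR169a-5p kept its direction and stayed short of the threshold in all 14 alternatives that tested it, and bna-miR169m likewise in 14, while ath-miR169b-5p did so in 13 of 14 and passed with the authors' library totals (0.75). The miR169 sum passed with those totals (0.38) and was below 0 with RLE factors (-0.0024), no factor (-0.052), 50 counts in 2 libraries (-0.0096) and DESeq2 (-0.00079), all within 1 SE of 0. Leaving out each library in turn gave 0.037 to 0.80 for ath-miR169a-5p (the lowest without LS library 1, the highest without LS library 2), 0.33 to 0.60 for ath-miR169b-5p, -0.42 to -0.15 for bna-miR169m and -0.079 to 0.12 for the miR169 sum. The same gave -2.40 to 3.42 percentage points for the share of ath-miR169b-5p against ath-miR169a-5p, 9.72 to 16.4 points against bna-miR169m, and 20 to 24 called miRNAs, against 27 with all libraries. DESeq2 called 17. Calls were 18 higher and 9 lower with TMM, 14 and 11 with RLE factors, 15 and 13 with no factor, and 33 and 3 with the authors' library totals. Same-numbered libraries did not deviate together (r = -0.26 over 52 miRNAs), and a block on the replicate number left 23 miRNAs called, none of them a member, with ath-miR169b-5p at 0.46 (edgeR adjusted p = 0.205), while the crossed pairing, added after seeing the data, called 25. In SS, 8 of the 14 miR169 entries and 4 of the 7 targets lay up to the last LS target, and no count changed with categories 0 to 2 or with p at or under 0.05. Counts of 1 to 44 reads per member and library limit what can be resolved.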
